A study of Mus musculus with 2 samples.

Results

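The genes described here are 10 chemokines, the CC family members Ccl2, Ccl3, Ccl4, Ccl5, Ccl6, Ccl7, Ccl8, Ccl9 and Ccl12 and the XC family member Xcl1, out of 30163 genes named on the arrays. They were found by the gene symbol that the scanner files give for each probe, and each was represented by 1 probe. Expression was measured on 2 one-colour arrays of bone marrow mononuclear cells flushed from the femurs of C57BL/6 mice aged 2 to 4 months. One array held RNA from cells given ninjin'yoeito (NYT), a herbal drug, and the other RNA from untreated negative control cells, both collected at day 11. The femurs were flushed with IMDM, a culture medium, containing 2% fetal bovine serum, for both groups. The sources do not state the dose, any pooling of animals, or whether both cultures shared mice. With 1 array for each group, the values have no replicate check and no p-value was computed. In cultures of mixed cells, fewer cells of a type and less RNA per cell cannot be told apart.

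Chemokines are small secreted proteins that direct the movement of leukocytes by binding G protein-coupled receptors. CC chemokines carry a pair of adjacent cysteines near the amino end, whereas XC chemokines lack one cysteine of that pair. In bone marrow, the monocyte attractants act through Ccr2 on the exit of monocytes into blood, and the inflammatory CC chemokines are made by macrophages, granulocytes and lymphocytes on stimulation. Many genes of the CC family lie side by side in mouse and arose by duplication.

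Of the 10 chemokines, 7 were measured well above background on both arrays and 3 on the control array alone. Ccl5, Ccl6, Ccl7 and Ccl9 showed a level at least 2-fold lower with NYT (4 of 7), and no member one at least 2-fold higher. Among all 16996 genes measured on both arrays, 11.0% were lower and 11.2% higher by that margin, or 22.2% either way. For Ccl8, Xcl1 and Ccl12 the background of the NYT array set bounds, at least 69.8-fold, 56.7-fold and 45.3-fold lower with NYT. After normexp background correction the bounds were 18.1-fold, 13.8-fold and 11.8-fold. Among the 19404 genes detected on 1 or both arrays, 3.77% had such a bound of 2-fold or more with detection in the control only, and 1.51% with detection in NYT only. Ccl3 and Ccl4 stood apart from the other 8, with differences above 0 as scaled but below 0 without scaling and by spike-in scaling.

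Sequence upstream of the start was at hand for 6 of the 10, Ccl12, Ccl8, Ccl9, Ccl6, Ccl3 and Xcl1, from RefSeq on GRCm38.p6. The 250 bases before the start are shown for the neighbours Ccl12 and Ccl8, both detected on the control array alone, for the neighbours Ccl9 and Ccl6, and for Ccl3, which did not share their difference. Capitals mark matches, on either strand, to the core promoter element TATAAA, to the AP-1 motif TGANTCA or to the NF-kB consensus. They lie at chr11:82101595-82101844 (plus strand) for Ccl12, chr11:82114935-82115184 (plus) for Ccl8, chr11:83578637-83578886 (minus) for Ccl9, chr11:83593088-83593337 (minus) for Ccl6 and chr11:83649379-83649628 (minus) for Ccl3.
Ccl12: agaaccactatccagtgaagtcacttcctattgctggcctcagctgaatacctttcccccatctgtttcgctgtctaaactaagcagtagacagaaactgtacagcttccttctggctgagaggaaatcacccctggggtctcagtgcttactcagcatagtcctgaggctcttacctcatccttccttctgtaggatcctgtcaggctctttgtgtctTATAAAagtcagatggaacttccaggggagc
Ccl8: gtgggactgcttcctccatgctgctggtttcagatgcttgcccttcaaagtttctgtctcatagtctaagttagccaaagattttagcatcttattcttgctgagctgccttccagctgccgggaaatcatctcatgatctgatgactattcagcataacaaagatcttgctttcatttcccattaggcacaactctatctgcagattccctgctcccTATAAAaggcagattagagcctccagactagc
Ccl9: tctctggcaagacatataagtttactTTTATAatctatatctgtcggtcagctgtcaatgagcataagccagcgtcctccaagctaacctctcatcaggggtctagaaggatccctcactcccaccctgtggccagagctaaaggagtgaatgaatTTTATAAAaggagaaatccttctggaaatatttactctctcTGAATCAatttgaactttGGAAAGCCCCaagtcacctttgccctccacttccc
Ccl6: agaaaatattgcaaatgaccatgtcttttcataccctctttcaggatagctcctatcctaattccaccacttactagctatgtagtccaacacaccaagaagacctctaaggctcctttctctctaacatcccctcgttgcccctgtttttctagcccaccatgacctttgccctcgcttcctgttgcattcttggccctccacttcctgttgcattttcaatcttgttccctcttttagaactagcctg
Ccl3: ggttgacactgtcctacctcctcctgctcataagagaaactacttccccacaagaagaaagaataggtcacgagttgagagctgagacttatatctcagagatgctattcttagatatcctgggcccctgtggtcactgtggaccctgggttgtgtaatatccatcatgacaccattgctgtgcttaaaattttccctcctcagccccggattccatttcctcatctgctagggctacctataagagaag

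Ccl12 and Ccl8 were the most alike of the 15 pairs, with 55.6% identical columns in a global alignment of 270 columns, against a median of 45.8% over the pairs. Both held TATAAA at nearly the same place, from 31 to 26 bases before the start in Ccl12 and from 32 to 27 in Ccl8. Ccl9 held 3 matches to TATAAA, all farther from the start, at 224 to 219, 94 to 89 and 92 to 87 bases before it. The last pair, on opposite strands, overlapped. Ccl9 alone held an AP-1 match (53 to 47 bases before the start) and an NF-kB match (35 to 26 bases). TATAAA thus occurred at any place in 3 of the 6 windows, against 12.4% of all 32851 promoter windows of this length. The 3 include the alike neighbours Ccl12 and Ccl8, so they are not 3 separate cases. The AP-1 and NF-kB matches occurred in 1 of 6 each, against 6.75% and 7.25%.

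The array signal rests on 60-base probes. The longest run shared between the probes of any pair of the 10 genes was 9 bases (45 pairs compared), although the genes themselves are related. The Xcl1 probe is shown because the XC family rests on it alone, and 1 of its 3 reading frames has no stop codon. Its place is chromosome 1, bases 166862020 to 166862079 of the minus strand, on mm9, the build of the files. Whether the probes fall in coding sequence or untranslated exons was not looked up here.
Xcl1 probe: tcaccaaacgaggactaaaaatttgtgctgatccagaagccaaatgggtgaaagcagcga

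Unscaled brightness of the non-control probes differed between arrays: the 75th percentile of intensity was 728 for NYT and 1476 for the control. The spike-in RNAs did not share that gap. Over the 8 detected on both arrays, their median unscaled log2 difference, NYT minus control, was 0.16. The cause of the gap was not tested. Differences below are log2 processed intensity, NYT minus control, after each array was scaled to its 75th percentile. Over all measured genes the median was then 0.29, and -0.73 if no scaling was applied. Probes well above background made up 57.7% on the NYT array and 62.2% on the control array. The errors available were technical: spot noise, with a median SD of 0.053 for a log2 difference over 247 repeatedly printed probes, and the scanner's own error estimate, which was at most 10.1% of the intensity on each array for the 7 measured members. All 6 leukocyte markers, Ptprc, Coro1a, Laptm5, Spi1, Tyrobp and Fcer1g, were well above background on both arrays. They went both ways as scaled, from -1.15 for Coro1a, the 1 of 6 at least 2-fold lower, to 0.91 for Laptm5. Their median was 0.26 (-0.76 without scaling, with 2 of 6 lower). Without scaling 36.4% of all measured genes were at least 2-fold lower.

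Ccl2, Ccl7 and Ccl12 attract monocytes, and Ccl8 is a related protein. Ccl2, the main ligand of Ccr2 (probe on chromosome 11, 81850650 to 81850709, plus strand, mm9), was printed 10 times on each array. Its processed intensity on the NYT array was 3730 at the lowest, 3805 at the median and 3938 at the highest over 10 spots. On the control array it was 13979 at the lowest, 14197 at the median and 14986 at the highest over 9 spots, 1 spot having been left out as an outlier. These are repeated spots of 1 sample per group on arrays of unequal brightness, so their separation shows technical precision alone. The log2 level as scaled was 2.39 ± 0.03 on the NYT array (SD over 10 spots) and 3.28 ± 0.03 on the control array (SD over 9 spots). The difference of -0.88 had an SD of 0.043 from spot noise, and was under 2-fold as scaled. It passed 2-fold with quantile normalization (-1.08), loess (-1.25), the authors' value table (-1.08), without scaling (-1.90) and with spike-in scaling (-2.06).

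Ccl7, which also binds Ccr2 and other receptors (81860656 to 81860715, plus strand), had a processed intensity of 1326 on the NYT array, against 7533 on the control array. It was 2.80-fold lower on the NYT array as scaled, a difference of -1.49. Ccl2 and Ccl7 are neighbours, and their differences were 0.60 apart, or 1.52-fold.

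Ccl12, a mouse ligand of Ccr2 (81916764 to 81916823, plus strand), had an intensity of 14.6 on the NYT array, against 1760 on the control array. Ccl8, which in mouse binds Ccr8 (81930108 to 81930167, plus strand), had 7.05 on the NYT array, against 2716 on the control array. Both were far above background on the control array and not well above it on the NYT array, where the lowest probe called well above background stood at 19.2. The negative control spots of the NYT array had a 95th percentile of 4.88, so both probes still lay above those spots, and the scanner's weaker flag called them positive there.

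**Figure D1:**
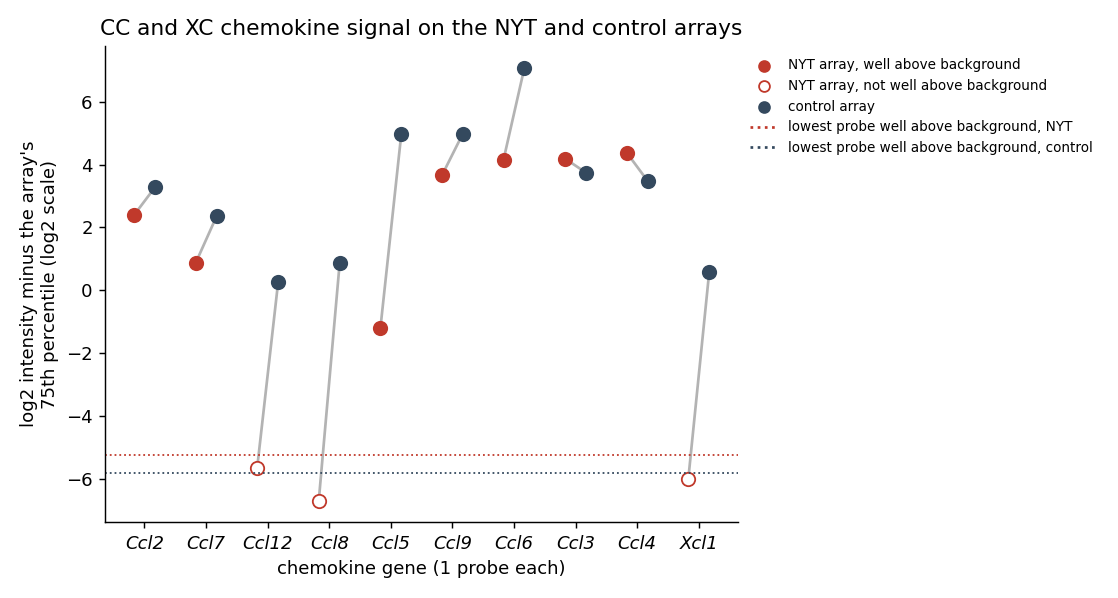
Log2 processed intensity minus the 75th percentile of the array, for each chemokine probe, on the NYT array (left point of each pair) and the control array (right point). Open points were not well above background, dotted lines mark the lowest probe well above background on each array, and levels of different probes are not on a common scale. Ccl12, Ccl8 and Xcl1 lie below the NYT line, and Ccl3 and Ccl4 alone have the NYT point higher, an order that turns round without scaling or by spike-ins.

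Ccl5, Ccl3 and Ccl4, inflammatory chemokines, differed from one another. Ccl5, also called RANTES, is made by T cells, NK cells and other leukocytes (83339296 to 83339355, minus strand). Its intensity was 314 on the NYT array, against 46257 on the control array. It was 72.8-fold lower on the NYT array as scaled (-6.19), the 10th lowest of the 16996 measured genes. Over the 10 alternative settings its difference lay between -7.37 and -5.95.

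Ccl3, a macrophage inflammatory protein that binds Ccr1 (83461358 to 83461417, minus strand), had an intensity of 13282 on the NYT array, against 19720 on the control array. As scaled its difference was 0.45, whereas it was -0.57 unscaled and -0.73 when spike-ins set the scale. Ccl4, its near relative (83478052 to 83478111, plus strand), had 15164 on the NYT array, against 16465 on the control array. Its difference came to 0.90 as scaled, to -0.12 unscaled and to -0.28 by spike-ins. Both genes stayed under 2-fold under all settings tried, so neither a higher nor a lower level can be stated for them. Relative to the median of all measured genes, Ccl3 stood at 0.16 and Ccl4 at 0.61.

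What does not depend on such scaling is how unequal the members' differences were, since a constant added to an array cancels. The difference of Ccl4 exceeded that of Ccl5 by 7.09, or 136-fold, and that of Ccl3 exceeded it by 6.63, or 99.4-fold. Ccl4 exceeded Ccl2 by 1.79, or 3.45-fold. Ccl4 and Ccl3 were 0.45 apart, or 1.37-fold.

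Ccl6 and Ccl9 are rodent chemokines that bind Ccr1 and are made by myeloid cells. Ccl6 (83401997 to 83402056, minus strand) had an intensity of 12962 on the NYT array, against 200470 on the control array. On the control array 99.8% of probes were no brighter than it, and no spot was saturated. Ccl6 was 7.63-fold lower on the NYT array (-2.93). Ccl9 (83388223 to 83388282, minus strand) had 9175 on the NYT array, against 46754 on the control array. It was 2.51-fold lower on the NYT array (-1.33), so the differences of these neighbours were 1.60 apart, or 3.03-fold.

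Xcl1, or lymphotactin, is made by NK cells and CD8 T cells and attracts dendritic cells that bear Xcr1. Its intensity was 11.3 on the NYT array, against 2205 on the control array. The NYT value was not well above background. Signal for Xcr1, the receptor, failed the background criterion on both arrays. The scanner's error estimate on the NYT array was 29.5%, 42.8% and 59.1% of the intensity for Ccl12, Xcl1 and Ccl8.

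**Figure D2:**
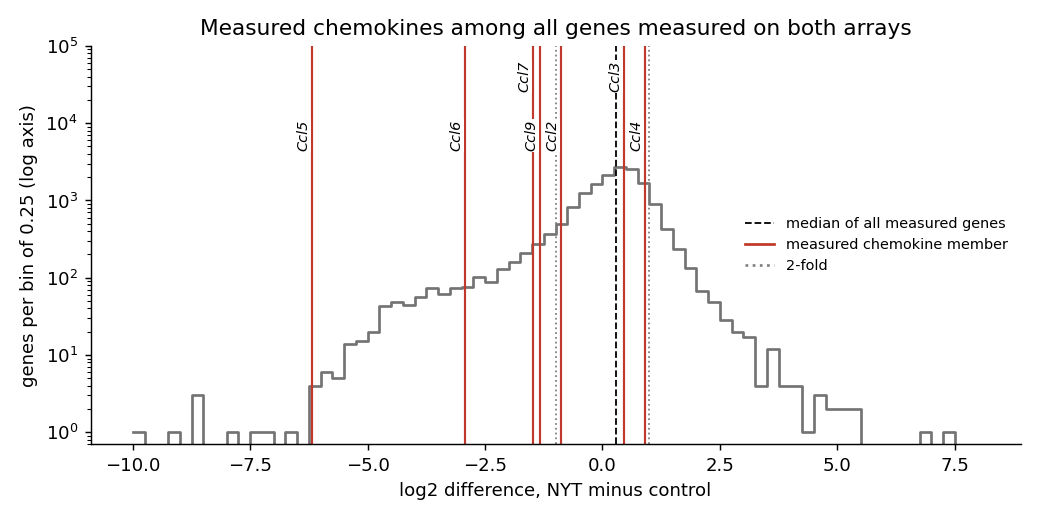
Number of genes per bin of 0.25 (log axis) against the log2 difference, NYT minus control, for the 16996 genes measured on both arrays (grey line). Red lines mark the 7 measured chemokines: Ccl5 at -6.19 lies in the far lower tail, Ccl6, Ccl7 and Ccl9 lie below the 2-fold line, and Ccl2, Ccl3 and Ccl4 lie within 2-fold.

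The median difference of the 7 measured members was -1.33, against 0.29 over all measured genes, and -2.35 against -0.73 without scaling. The 3 members detected on the control array alone are not in that median. The member count of 4 also varied with the normalization. It was 5 with quantile normalization, loess, no scaling, spike-in scaling and the authors' value table, while the share of all genes lower was slightly below 11.0% with quantile normalization and the authors' value table, 14.7% after loess, 36.4% without scaling and 44.0% by spike-ins. As scaled, 1908 genes were higher and 1868 lower. The split was 863 higher and 2496 lower after loess, 211 higher and 6190 lower unscaled, and 166 higher and 7485 lower by spike-ins.

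The 9 CC members lie on chromosome 11 in 2 groups whose probes are 1409 kb apart. In the first group the probes follow the order Ccl2, Ccl7, Ccl12, Ccl8 over 79.5 kb, with differences of -0.88 and -1.49 for the first pair and the bounds given above for the second. In the second group the order is Ccl5, Ccl9, Ccl6, Ccl3, Ccl4 over 139 kb, with differences of -6.19, -1.33, -2.93, 0.45 and 0.90. Neighbours in each group thus spanned both small and large differences. This is a description of 9 genes, and their order was not tested.

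**Figure D3:**
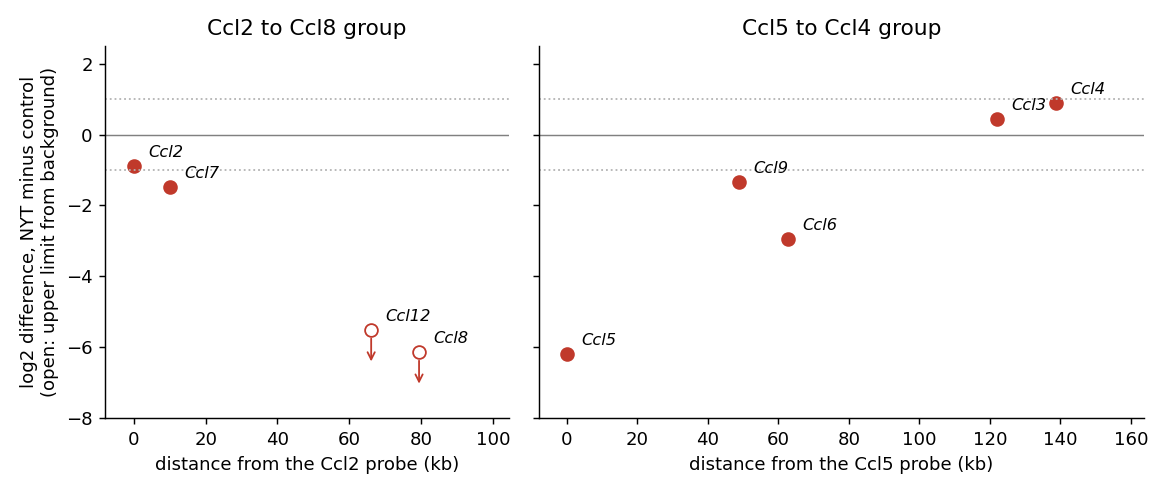
Log2 difference, NYT minus control, against distance in kb from the first probe, for the Ccl2 group (left) and the Ccl5 group (right) of chromosome 11. Open points with arrows are upper limits for Ccl12 and Ccl8, which were not well above background on the NYT array. Ccl5 and Ccl4, at the ends of the second group, lie at -6.19 and 0.90, and Ccl4 falls below 0 without scaling or by spike-ins.

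Of 15 other CC chemokines listed, 11 had a probe, 6 were measured on both arrays, and 2 of these were lower by 2-fold or more with NYT. Ccl24, an attractant of eosinophils, differed by -2.12, Ccl17, a ligand of Ccr4, by -1.56 and Ccl1 by -0.52. Ccl22 was well above background on the control array alone, with no fold because its bound was under 1. The other 4, Ccl11, Ccl20, Ccl26 and Ccl28, named here after their values were seen, were below that criterion on both arrays. The median of the 6 was -0.49, and -1.51 without scaling, where 4 of 6 were lower. For this list and those below, the shares of all measured genes at least 2-fold lower and higher are the background. They were 11.0% and 11.2% as scaled, and 36.4% and 1.24% without scaling.

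Of 13 CC and XC receptor genes, 11 were measured, of which 7 were at least 2-fold lower and 1 was higher (8 and 0 without scaling), with a median of -1.72 (-2.74 without scaling). Ccr2, the receptor of Ccl2, Ccl7 and Ccl12, was 20.05-fold lower on the NYT array (-4.33), Ccr3, an eosinophil receptor, 13.7-fold (-3.78) and Ccr9 10.1-fold (-3.34). Ccr1, which binds Ccl3 and Ccl5 and was named after its value was seen, differed by -1.82. It was thus at least 2-fold lower on the array where Ccl3 was within 2-fold. Ccrl2, an atypical receptor of the family, was the higher one, at 1.13 as scaled, though slightly below 0 by spike-ins. Of 4 atypical receptors that take up chemokines, Ackr1 had a bound of at least 13.3-fold lower with NYT, Ackr2 was 2.90-fold higher (1.54, and 0.52 without scaling), and Ackr3 and Ackr4 were undetected on both arrays.

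Signals upstream of chemokine genes were examined next. NF-kB, a transcription factor that many chemokine genes depend on, is held in check by inhibitor proteins and released by Toll-like and interleukin-1 receptors. Of 18 genes of that pathway, 17 were measured and 15 of these were under 2-fold as scaled, with 1 lower and 1 higher. Without scaling 10 of the 17 were at least 2-fold lower and none was higher, against 36.4% and 1.24% of all measured genes. Nfkbiz, a nuclear cofactor, differed by -2.22, Ikbkg, a subunit of the activating kinase, by 1.13 (slightly below 0 by spike-ins). Nfkbib, an inhibitor, stood at 0.81 for its brightest probe and at -0.08 for the lowest of its 3 probes, both below 0 without scaling. The median was -0.11, and -1.13 without scaling.

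Of 8 cytokines that induce chemokines, 2 of 4 measured were at least 2-fold lower (3 without scaling) and the other 4 were detected on the control array alone. Il1b, interleukin-1 beta, was 69.8-fold lower on the NYT array (-6.12) and Il4 4.70-fold (-2.23), while Il1a stood at 0.59 as scaled and below 0 without scaling. Bounds for Il6 and Ifng, interferon gamma, were at least 20.1-fold and 13.9-fold lower with NYT. All 9 interferon and STAT factors were measured, of which 3 were at least 2-fold lower. Among them were Irf1 (-2.68) and Irf7 (-1.84), each part of interferon responses, and the list's median was -0.30. Without scaling 8 of the 9 were lower, against 36.4% of all measured genes, and the median was -1.32. Of 7 proteases and surface proteoglycans that process or bind chemokines, 6 were measured, 3 were lower and 1 was higher (4 and 0 without scaling). Mmp9 differed by -4.58, Mmp8 by -2.03 and Dpp4, a protease that trims Ccl5, by -1.31, and the bound for Mmp2 was at least 10.85-fold lower.

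Markers of cells that make these chemokines differed between the arrays as well, and their part in the chemokine differences was not tested. Of 12 T and NK cell markers with a probe, 7 were detected on the NYT array and 12 on the control array, and 4 of the 7 were at least 2-fold lower (7 without scaling). Il2rb differed by -5.42, Cd3d by -4.93 and Cd3g by -3.64. The 3 under 2-fold as scaled, named after their values were seen, were Cd4 (-0.76), Cd3e (-0.72) and Prf1 (-0.43). Klrd1 and Klrb1c, both NK cell receptors, were bounded at 103-fold and 49.85-fold lower or more, and Gzmb, Ncr1 and Cd8a, named after their values were seen, were likewise undetected on the NYT array. The summed level of the list, in multiples of each array's 75th percentile, was 7.14 on the NYT array and 26.5 on the control array. Such sums add probes that are not on a common scale and are set by the brightest. Here that was Nkg7, with 41.7% of the sum on the NYT array and 27.8% on the control array. Nkg7, named after its value was seen, differed by -1.30 for its brightest probe and by -5.39 for its other measured probe. The sums are therefore given as descriptions of the lists and not as amounts of a cell type. Ccl5 and Xcl1 are known products of these cells. Lymphocytes also make the inflammatory chemokines Ccl3 and Ccl4 on stimulation, and both of these stayed under 2-fold.

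Of 8 monocyte markers, 4 were at least 2-fold lower as scaled, 8 without scaling, and none was higher (Ccr2 -4.33, Fn1 -4.14, Cx3cr1 -4.02). Vcan, named after its value was seen, counted as under 2-fold by its brightest probe (-0.51), but its other measured probe stood at -2.665. The summed level of the monocyte markers was 105.0 on the NYT array and 274 on the control array. Of 10 macrophage markers, 6 were lower, among them C1qa (-5.21), C1qb (-3.74) and C1qc (-3.58), and 1, Cd68, was higher as scaled (1.18, and about 0 by spike-ins), with a summed level of 385 on the NYT array and 409 on the control array. Of these sums, Cd68 gave 46.0% on the NYT array and Lyz2 32.5% on the control array, so their nearness does not describe the members that were lower. Cd68 and Lyz2 were named after their values were seen. All 5 measured mast cell and basophil markers were lower (Cpa3 -7.18, Mcpt8 -6.63, Hdc -5.59) and another 2, Fcer1a and Ms4a2, were detected on the control array alone, with a summed level of 1.11 on the NYT array and 52.4 on the control array.

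Among the remaining lists, 6 of 8 neutrophil markers, 5 of 5 eosinophil markers, 4 of 5 stromal markers (the other, Lepr, was higher at 1.36 as scaled) and 1 of 4 dendritic cell markers that were measured were at least 2-fold lower. None of 5 B cell markers was as scaled, with a median of -0.21, and 3 of 5 were without scaling, against 36.4% of all measured genes. Of 3 erythroid markers with a probe, 1 was measured, and it was lower. Summed levels on the NYT and control arrays were 316 and 720 for neutrophils, 4.89 and 72.2 for eosinophils, 5.02 and 15.4 for stromal cells, 67.8 and 66.7 for dendritic cells, 21.6 and 25.4 for B cells, and 0.26 and 2.18 for erythroid cells. Siglech gave most of the dendritic cell sum on the NYT array and 78.5% of it on the control array, while Itgax, another marker of that list, differed by -2.15. Lepr gave 86.6% of the stromal sum on the NYT array, whereas Col1a2 gave 64.2% on the control array. S100a9, named after its value was seen, gave 67.3% of the neutrophil sum on the NYT array and 35.1% on the control array. Prg2 gave 83.1% and 73.6% of the eosinophil sums on the NYT and control arrays.

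**Figure D4:**
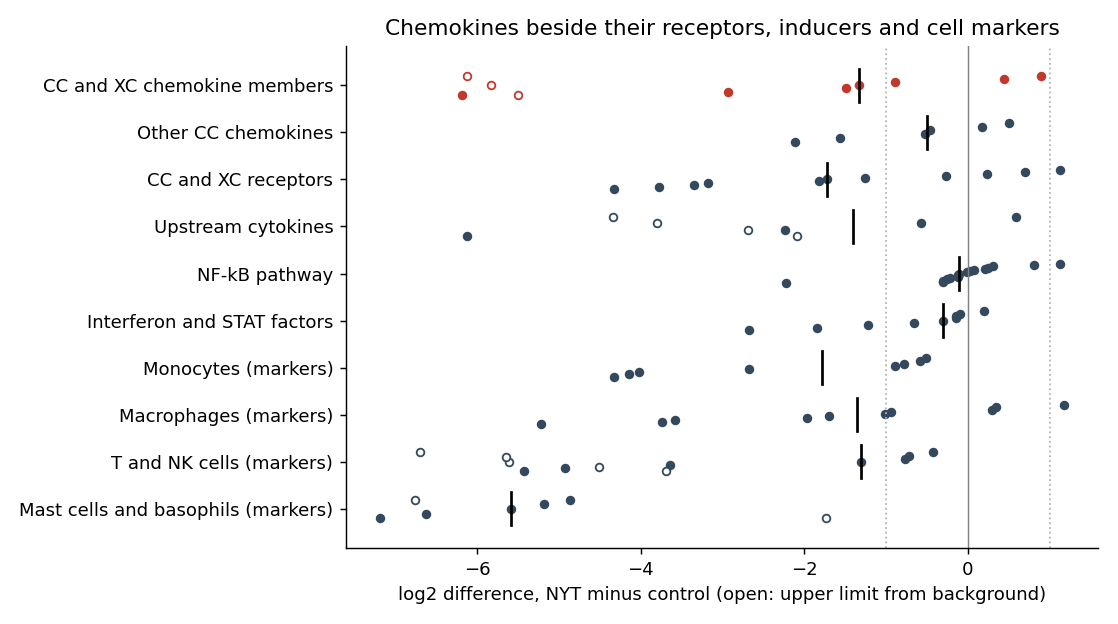
Log2 difference, NYT minus control, for each measured gene (filled points) of the chemokine members and of lists of related genes and cell markers, with the median of measured genes as a black bar. Open points are upper limits for genes detected on the control array alone with a bound of at least 2-fold. Chemokine members run from -6.19 to 0.90, and the NF-kB pathway has a median of -0.11 as scaled (-1.13 without scaling).

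**Figure D5:**
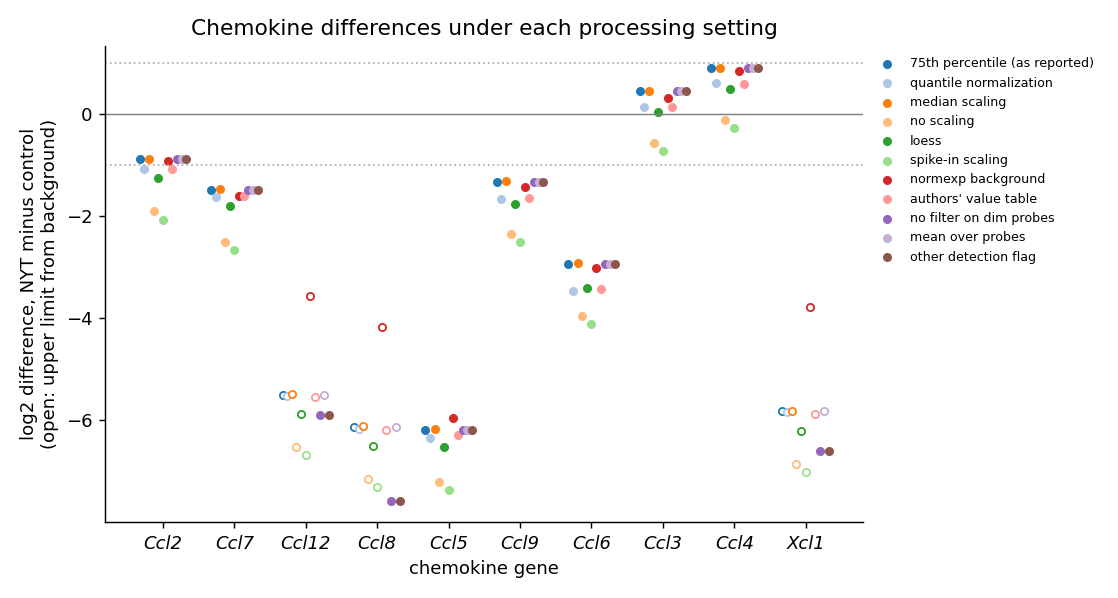
Log2 difference, NYT minus control, of each chemokine under the scaling used and 10 alternatives, with open points as upper limits. Ccl5, Ccl6, Ccl7 and Ccl9 stay below the 2-fold line throughout, Ccl2 lies on either side of it, and Ccl3 and Ccl4 lie on either side of 0.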

How the data were processed

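The authors deposited spot intensity from the Agilent scanner's Feature Extraction software, whose version the file headers give as 10.7.1.1 and the submitters' processing notes as 9.5.1.1. The headers state spatial and multiplicative detrending. Flags in the same deposited files mark outlying, saturated and detected spots. The authors' value table holds linear intensity of both arrays, with nearly equal quantiles. How it was scaled is not stated.

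Spots of a probe, outliers removed, were averaged as log2 intensity and scaled to the 75th percentile. A probe was detected (well above background) when over 50% of its spots carried that flag, and a gene took the brightest probe detected on both arrays. For detection on 1 array, the bound set the bright level against the lowest detected level of the dim array, or the dim probe's level if higher. Genes were counted at 2-fold, with no test. Labels gave the groups, and the number of arrays limits the precision. Members, lists, settings and the naming rule (from each list the 3 largest differences and 2 highest bounds, or all genes of lists of 6 or fewer) were chosen with earlier results of these data known. Some genes that the rule would name are not reported here. Since 2 arrays give 1 difference, no gene was named for likeness of pattern. Counting at 2-fold was checked on simulated arrays with known folds and spot noise. The simulated NYT array was the control array shifted by a constant, with folds given to few genes. It thus checked the counting step alone, and not the scaling of arrays as unlike as these. Both simulated arrays carried the same detection flags, so the bounds were not tested. Alternatives were quantile, median, spike-in, loess and no scaling, normexp (offset 50), the authors' value table, a mean over probes, a weaker detection flag, no filter and a 3-fold threshold. They used limma 3.58.1 in R 4.3.3 and Python 3.11.15. Promoters came from RefSeq. An interferon-type motif was also searched, without a match in the 6 promoters.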

Additional observations from a re-analysis of the deposited data

Results flagged for a closer look

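The spike-in RNA E1A_r60_a107 stood apart from the other spike-ins. Its unscaled log2 signal was 8.57 with NYT and 6.32 in the control, a difference of 2.25, while the other 7 detected spike-ins lay between -0.12 and 0.24. The median that set the spike-in scaling was 0.16 with it and 0.16 without it.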

How the results depend on the processing

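No paired analysis was possible because NYT and control had a single array apiece, which also left none to omit. More genes entered with no filter or the weaker detection flag, and a 3-fold threshold passes fewer by construction. For the other changes the cause was not tested. Measured members lower with NYT numbered 2 at 3-fold, against 6.87% of all genes, and 7 with no filter (11.3%) or the weaker flag (12.2%), where the 3 bounded genes enter with signals not well above background. Genes higher and lower numbered 507 and 1167 at 3-fold, 4755 and 3414 with no filter, 211 and 6190 unscaled, and 166 and 7485 by spike-ins. Genes higher were 863 after loess and 3577 with the weaker flag. Members at least 2-fold higher numbered 0 under all settings tried, and the members' median lay between -2.51 and -1.32. Under normexp the bounds were at least 18.1-fold lower for Ccl8, 13.8-fold for Xcl1 and 11.8-fold for Ccl12. Signal near background limits these 3 genes to bounds.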
